A study of Homo sapiens with 4 samples.

Results

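The histone genes in these data are 74 of the 63241 genes of the count table, chosen by symbol. They are the rows whose symbol starts with H1-, or with H2AC, H2BC, H3C or H4C and a digit. By symbol letters 78 rows matched once 15 symbols ending in P, which mark pseudogenes, were left out, and 4 more were set aside, of which 2 are antisense RNAs and 2 are pseudogenes of H1-8. The 74 genes encode linker histones of the H1 class (10 genes) and core histones of the classes H2A (17), H2B (19), H3 (13) and H4 (15). The RNA came from LX-2, a human hepatic stellate cell line that grows without limit in culture, with 1 library per condition. The conditions were TGF-β with BDS4, TGF-β with RVX-208, TGF-β alone, and control cells without TGF-β. All cells had first been starved for 24 h in 0.5% serum, TGF-β was given at 20 ng/mL for 24 h, and each compound was added with it at 5 µM. RVX-208 (apabetalone) inhibits BET proteins, the bromodomain readers of acetylated histones, and prefers their second bromodomain. Only a code name is given for BDS4, in a series titled for covalent inhibitors of the first bromodomain. DMSO is named in the column label for TGF-β alone, and the sources used here do not say whether control cells had vehicle. The column of the BDS4 library was matched through its description alone. TGF-β drives stellate cells towards scar-forming myofibroblasts.

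Histones are the proteins around which DNA is wound. H2A, H2B, H3 and H4 form the core of the nucleosome, and H1 binds the linker DNA where the strand enters and leaves it. Most histone genes lie in clusters, exist as many near-identical copies and are transcribed in S phase, when new DNA must be packaged. Their messages normally end in a short stem-loop bound by the protein SLBP in place of a poly(A) tail, so a library kit made for mRNA may recover them poorly. H1-10 stands apart: it is a single gene that is expressed outside S phase and gives a polyadenylated message. Near-identical copies may share reads, and the sources used here do not say how such reads were divided, so sums over a class are given beside single genes.

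Library totals were 21618509 counts with BDS4, 17022369 with RVX-208, 21860122 with TGF-β and 22503094 in control. Levels below are TMM-scaled counts per 1000000 counts (CPM), and brackets after a ratio hold its 95% counting interval. Calls of higher or lower needed a ratio between 2 libraries of 2 or more, in one direction or the other, with an interval that excluded 1. This is a rule of size: with 1 library per condition no ratio could be set against the spread between cultures, and no p-value was computed. Of 13 stellate or mesenchymal markers, 11 reached 1 CPM in at least 1 library and LRAT had no counts in any. Of 4 leukocyte markers none reached 1 CPM, and the 6 hepatocyte markers summed to between 1.72 and 3.89 CPM. Markers of other cell types were not all absent. Of 5 macrophage markers 3 reached 1 CPM. They summed to 19.8 CPM with BDS4, 16.4 with RVX-208, 26.0 with TGF-β and 35.3 in control. Of 5 endothelial markers 2 reached 1 CPM, with sums of 11.8, 6.59, 6.16 and 7.24 CPM in the same order.

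Of the 74 genes, 50 had at least 1 CPM in at least 1 library and 24 did not. The threshold was passed by 48 of the 50 in the BDS4 library, 41 in the RVX-208 library, 36 in the TGF-β library and 32 in control. It was passed in the BDS4 library alone by 7 genes, so counts over the 50 are in part fixed by the filter, and the 36 genes at or above 1 CPM with TGF-β alone are given separately. Of the 24 genes under the threshold, none had more than 18 counts with BDS4. H1-1, H1-8, H2AC1 and H2BC1 had no counts in any library. H2AC1 and H2BC1 encode testis histones and H1-8 encodes the oocyte linker histone.

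Per length, in the deposited FPKM values, H2BC12 and H1-2 were among the most abundant histone messages. H2BC12, a core H2B gene, had 747 FPKM with BDS4, 498 with RVX-208, 318 with TGF-β and 254 in control. H1-2, a replication-dependent linker histone, had 499 FPKM with BDS4, 247 with RVX-208, 141 with TGF-β and 130 in control. H2BC12 thus stood above H1-2 in every library.

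**Figure D1:**
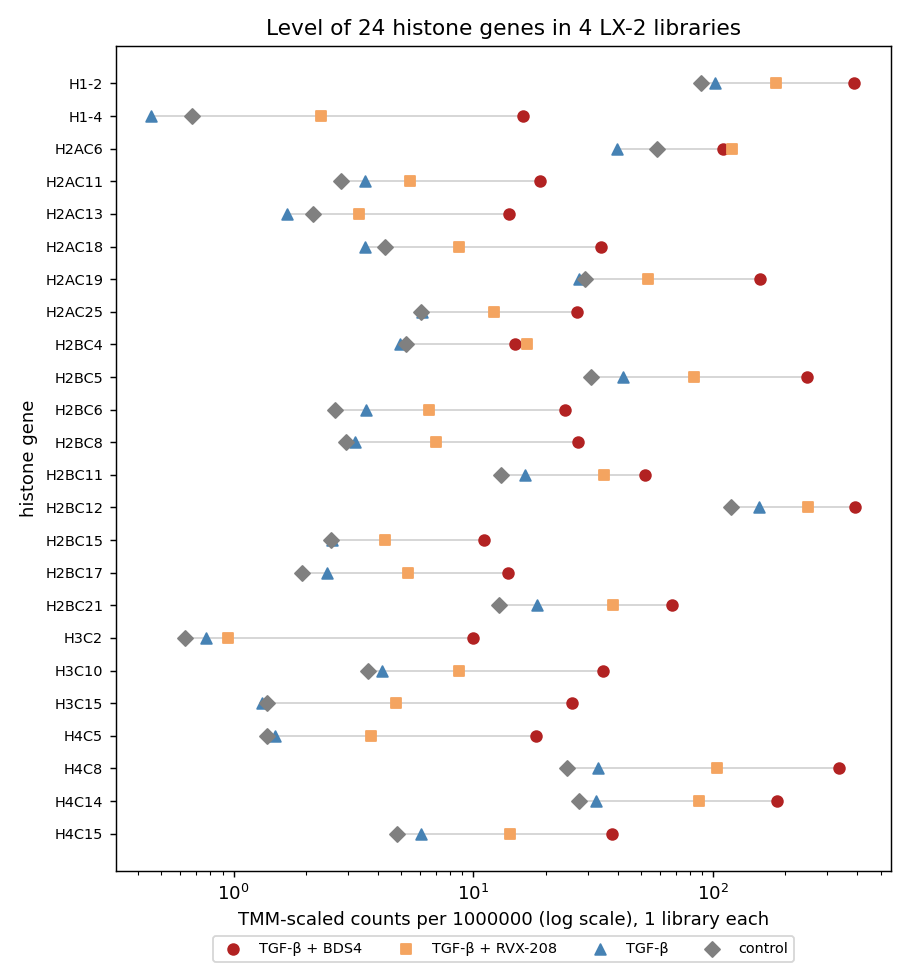
Level of 24 histone genes (rows) in TMM-scaled counts per 1000000 on a log axis, with 1 point per library and a grey line from the lowest to the highest. The BDS4 point is the rightmost in every row but those of H2AC6 and H2BC4, where the RVX-208 point is further right, and the TGF-β and control points lie close together.

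Set against TGF-β alone, the BDS4 library shows what differed where the compound was added. Histone genes of all 5 classes were higher with BDS4. Of the 50 genes that passed the filter, 44 were called higher and none lower, while 6 had no call. Across all 16113 genes that passed the filter, 14.3% were called higher and 17.8% lower. The median log2 ratio (prior count 2) was 2.31 over the 50 histone genes and −0.02 over all genes. Among genes with at least 1 CPM in the TGF-β library, 31 of 36 histone genes (86.1%) and 11.1% of 14915 genes were called higher. Summed, the 74 genes gave 0.324% of all counts with BDS4 and 0.124% with TGF-β, and the ratio of the scaled sums was 2.81 (2.77 to 2.85). This sum rests largely on few genes. The 4 genes with the most counts with TGF-β held 76.6% of the histone counts there and 53.7% with BDS4.

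Other values differed between the libraries too, not all of them in the BDS4 library alone. Mitochondrial rRNA made up 0.903% of its counts, against 0.230% with RVX-208, 0.248% with TGF-β and 0.212% in control. The nuclear RNA NEAT1 had 968 CPM with BDS4, 127 with RVX-208, 60.6 with TGF-β and 66.8 in control. The long non-coding RNA MALAT1 was level in the compound libraries, at 69.0, 69.1, 24.4 and 40.9 CPM in this order. The 10 genes with the most counts held 5.33%, 4.98%, 5.29% and 3.98% of counts in this order. Since histone messages mostly lack a poly(A) tail, other RNAs without one were read too, from a list added after the data had been seen. Most of this list did not pass the filter. RN7SK, a small nuclear RNA that restrains the elongation factor P-TEFb, had 5.79, 1.37, 0.725 and 0.879 CPM in the same order. The small nucleolar RNA SNORD3A had 2.50, 0.416, 0.0453 and 0.251 CPM, on 51, 7, 1 and 6 counts. Its TGF-β value is below the floor of 3 counts. SNORD17 had 5.10, 3.15, 3.03 and 2.47 CPM and was not called in any comparison. SCARNA13, under the filter, had 2 counts with BDS4, 12 with RVX-208, 12 with TGF-β and 12 in control. RN7SL1, the RNA of the signal recognition particle, went another way than RN7SK. It had 49.1 CPM with BDS4, 29.2 with RVX-208, 83.3 with TGF-β and 15.7 in control, and RN7SL2 had 62.3, 38.4, 98.7 and 26.6 CPM. Of 4 cholangiocyte markers 2 reached 1 CPM, and their summed level was 24.3 CPM with BDS4, 51.6 with RVX-208, 105 with TGF-β and 57.5 in control. The 13 stellate markers summed to 4840 CPM with BDS4, 8336 with RVX-208, 10230 with TGF-β and 6597 in control. The part of these differences in the histone values was not tested, and in bulk RNA a change in the share of cells in S phase and a change in histone RNA per cell cannot be told apart.

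**Figure D2:**
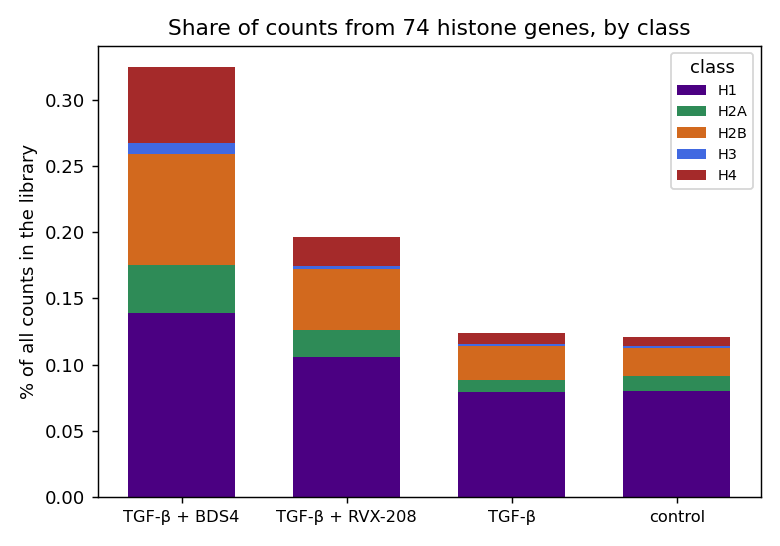
Share of all counts in each library (bars from 0, in %) that fell on the 74 histone genes, divided by histone class. The whole bar is 0.324% with BDS4, 0.196% with RVX-208, 0.124% with TGF-β and 0.120% in control, and the H1 segment is the largest in every library.

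Replication-dependent linker histones were called higher. H1-4, a replication-dependent linker histone, had 16.0 CPM (327 counts) with BDS4, 2.32 CPM (39 counts) with RVX-208, 0.45 CPM (10 counts) with TGF-β and 0.67 CPM (16 counts) in control. The BDS4 library stood far above the other 3, and the ratio to TGF-β was 35.4 (19.01 to 74.5), the largest of the 50 genes. H1-2 had 387 CPM with BDS4, 182 with RVX-208, 102 with TGF-β and 89.4 in control, a ratio of 3.79 (3.62 to 3.97) for BDS4 to TGF-β. H1-3 and H1-5, 2 further replication-dependent linker genes, were called higher as well, with 66 and 57 counts with BDS4 against 16 and 3 with TGF-β. H1-10, named after its values were seen, had 219 CPM with BDS4, 147 with RVX-208, 123 with TGF-β and 124 in control. Its ratio of 1.78 (1.70 to 1.87) for BDS4 to TGF-β stayed under the rule.

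Core H2A genes were called higher in 9 of the 11 that passed the filter. H2AC19 and H2AC18 are near-identical copies on chromosome 1. H2AC19 had 157 CPM with BDS4, 53.5 with RVX-208, 27.5 with TGF-β and 29.3 in control, and H2AC18 had 34.0, 8.73, 3.53 and 4.27 CPM. The RVX-208 library lay between BDS4 and the other libraries for both, and their sum was 6.14 times higher (5.66 to 6.67) with BDS4 than with TGF-β. H2AC13 on chromosome 6 had 14.1 CPM with BDS4, 3.33 with RVX-208, 1.68 with TGF-β and 2.14 in control. H2AC11 had 18.9, 5.47, 3.53 and 2.81 CPM in this order. H2AC25, an H2A gene on 1q42 outside the large clusters, had 27.0, 12.2, 6.11 and 6.07 CPM. Its BDS4 to TGF-β ratio of 4.42 (3.65 to 5.37) was lower than that of H2AC13, 8.40 (5.95 to 12.2), with intervals that did not overlap. H2AC20 and H2AC15 passed the filter without a call and are named after their values were seen. H2AC20 had 12 counts with BDS4 and 23 with TGF-β, and H2AC15 had 36 and 22.

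H2AC6 followed another order. It had 110 CPM with BDS4, 120 with RVX-208, 39.6 with TGF-β and 58.2 in control. The compound libraries were both above the others, with the RVX-208 library the highest. Its level with BDS4 was 2.78 times that with TGF-β (2.57 to 3.01), and with RVX-208 it was 3.04 times (2.80 to 3.29). The neighbouring H2BC4, which encodes an H2B protein, had 14.9 CPM with BDS4, 16.7 with RVX-208, 4.94 with TGF-β and 5.23 in control, again with the RVX-208 library on top. These genes lie next to each other at chr6:26124172-26124690 and chr6:26113170-26123926 (GRCh38).

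All 14 H2B genes that passed the filter were called higher with BDS4. H2BC12 had 392 CPM with BDS4, 249 with RVX-208, 156 with TGF-β and 119 in control. H2BC5 had 248 CPM with BDS4, 83.6 with RVX-208, 42.2 with TGF-β and 30.9 in control. The ratio to TGF-β was 2.52 (2.42 to 2.62) for H2BC12 and 5.87 (5.47 to 6.30) for H2BC5, so the most abundant H2B gene changed by the smaller factor. H2BC21 had 67.2, 38.1, 18.5 and 12.8 CPM in the same order, and H2BC11 had 52.2, 34.9, 16.4 and 13.1 CPM. H2BC8 had 27.3 CPM with BDS4, 7.01 with RVX-208, 3.22 with TGF-β and 2.93 in control, the largest H2B ratio at 8.48 (6.61 to 11.0). H2BC6, H2BC17 and H2BC15 had 24.2, 13.98 and 11.1 CPM with BDS4. They had 6.53, 5.35 and 4.28 CPM with RVX-208, 3.58, 2.45 and 2.58 CPM with TGF-β, and 2.64, 1.93 and 2.55 CPM in control. For each of them the order of the compound libraries was the same, BDS4 above RVX-208 above both others. In the GENCODE 29 annotation H2BC15 shares exon bases with other histone genes on both strands.

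H3 genes were few in counts and large in ratio. H3C15, an H3 gene at chr1:149852608-149853125 (GRCh38), had 25.8 CPM (526 counts) with BDS4, 4.75 CPM (80 counts) with RVX-208, 1.31 CPM (29 counts) with TGF-β and 1.38 CPM (33 counts) in control. Its ratio of 19.6 (13.5 to 29.6) for BDS4 to TGF-β was 19.5 (13.7 to 28.6) when it was summed with its near-identical copy H3C14. H3C10 had 34.8 CPM with BDS4, 8.67 with RVX-208, 4.17 with TGF-β and 3.64 in control. H3C2 had 10.0 CPM (204 counts) with BDS4 and 0.95 CPM (16 counts) with RVX-208, against 0.77 CPM (17 counts) with TGF-β and 0.63 CPM (15 counts) in control. In H3C2 the RVX-208, TGF-β and control libraries lay within their counting intervals of each other. Of the 9 H3 genes past the filter 7 were called higher, and the other two, named after their values were seen, were H3C6 with 63 counts with BDS4 and 78 with TGF-β, and H3C12 with 12 and 4.

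All 10 H4 genes that passed the filter were called higher with BDS4, and they encode one and the same protein. H4C8 had 335 CPM with BDS4, 104 with RVX-208, 33.0 with TGF-β and 24.6 in control. H4C14 had 185 CPM with BDS4, 87.3 with RVX-208, 32.5 with TGF-β and 27.7 in control. Per length the pair was close with TGF-β alone, at 9.24 FPKM for H4C8 and 9.40 FPKM for H4C14, and apart with BDS4, at 87.6 and 50.02 FPKM. H4C8 was at 10.2 times (9.41 to 11.0) its TGF-β level and H4C14 at 5.70 times (5.26 to 6.18). H4C15 had 38.0, 14.2, 6.07 and 4.82 CPM in the same order of libraries. H4C5 had 18.2, 3.74, 1.495 and 1.38 CPM. The smallest H4 change, a log2 ratio of 1.04, was that of H4C16 on chromosome 12, which lies outside the clusters. H3C14 and H4C14, and H3C15 and H4C15, overlap in exon bases on opposite strands in GENCODE 29, and the sources used here do not state whether counting used the strand.

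Summed by class, the scaled counts with BDS4 were 7.53 times (7.16 to 7.92) those with TGF-β for H4 and 6.61 times (5.85 to 7.49) for H3. The factor was 4.35 (4.14 to 4.58) for H2A and 3.42 (3.32 to 3.52) for H2B. Of these intervals, those of H4 and H3 alone overlapped. The order rested in part on single genes. Without the gene with the most counts of each class, the factor was 5.70 (5.33 to 6.09) for H4 without H4C8, 5.85 (5.04 to 6.81) for H3 without H3C10, 5.64 (5.29 to 6.03) for H2A without H2AC6 and 4.77 (4.56 to 4.99) for H2B without H2BC12. The intervals of H4, H3 and H2A then overlapped with each other.

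The stem-loop at the message's end marks a replication-dependent histone gene, and the following sites show it in 5 genes of the core classes. The letters searched, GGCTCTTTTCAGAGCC, are the stretch shared by the most of these genes that can fold into a stem of 6 base pairs around a loop of 4 bases, so their frequency here is a description. With up to 2 mismatches and on the transcript's own strand, they were found in GENCODE 29 transcripts of 26 of the 70 histone genes that have a protein-coding transcript there (37.1%), 15 of them exact. In all 19684 genes with such a transcript 83 held a match (0.422%). Capitals mark the matched stem-loop, positions are GRCh38 and the sequence is that of the RNA's strand.
H2AC13 (chr6:27808642-27808667, plus strand): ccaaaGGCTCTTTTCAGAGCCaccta
H2BC8 (chr6:26216213-26216238, minus strand): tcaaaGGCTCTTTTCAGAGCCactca
H2BC5 (chr6:26158582-26158607, plus strand): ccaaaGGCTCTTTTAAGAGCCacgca
H3C15 (chr1:149853100-149853125, plus strand): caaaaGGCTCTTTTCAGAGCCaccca
H4C8 (chr6:26285126-26285151, minus strand): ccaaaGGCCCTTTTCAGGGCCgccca
The sites of H2AC13, H2BC8 and H3C15 hold the exact letters. No H1 transcript held a match at this tolerance, which says only that these letters were not in the annotated transcripts. In 18 of the 26 genes the annotated transcript that was read ran at least 200 bases beyond the stem-loop. Where several transcripts of a gene matched equally well, the longest was read, and shorter ones were not counted.

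The length of the gene model used for counting, read from the ratio of counts to FPKM, separated the genes into 31 with models under 800 nt (387 to 797 nt) and 19 with longer ones (1034 to 7532 nt). Of the short models 30 equalled the span of the RefSeq gene, and of the long ones 11 were longer than it. With BDS4, 29 of the 31 short models and 15 of the 19 long models were called higher than with TGF-β, with median log2 ratios of 2.39 and 2.07. With RVX-208 it was 8 of 31 and 10 of 19, with medians of 0.83 and 0.99. Genes with either kind of model were called higher with each compound, and whether the reads came from messages that end at the stem-loop was not tested.

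**Figure D3:**
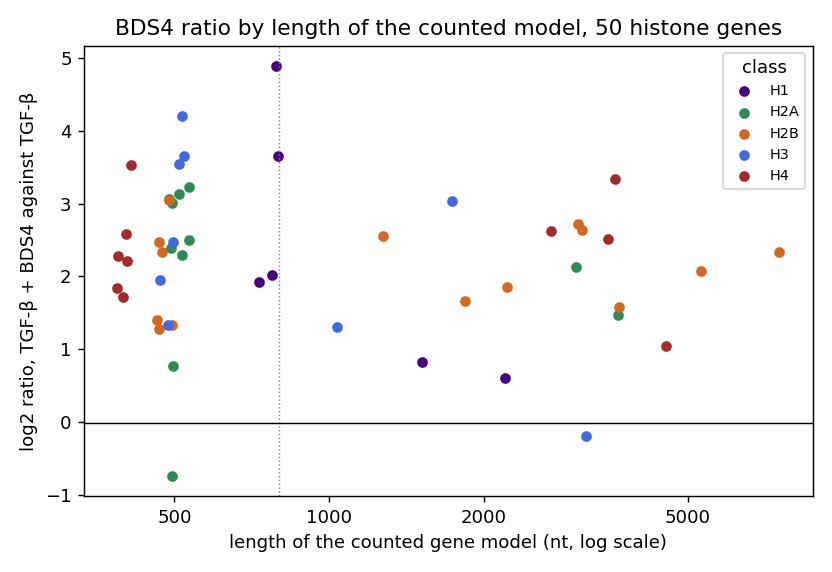
Log2 ratio of TGF-β with BDS4 to TGF-β for the 50 histone genes past the filter (vertical axis, prior count 2) against the length of the counted gene model in nt (log axis), coloured by class. The dotted line is at 800 nt and the solid line is the median of all genes, −0.02. On both sides of the dotted line nearly all genes lie above the solid one, with H2AC20 (short model) and H3C6 (long model) below it.

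The RVX-208 library, set against TGF-β alone, puts the same question to an inhibitor that prefers the second bromodomain. Histone genes were again higher, by smaller factors. Of the 50 genes that passed the filter, 18 were called higher and none lower, against 2.91% higher and 5.32% lower among all genes past it. The median log2 ratio over the 50 genes was 0.85, and over all genes it was −0.0025. Among genes with at least 1 CPM in the TGF-β library, 14 of 36 histone genes (38.9%) and 1.65% of all genes were called higher. The 18 genes were 1 of class H1, 3 of H2A, 6 of H2B, 4 of H3 and 4 of H4. H1-4 had the ratio 5.12 (2.51 to 11.5), H3C15 3.62 (2.34 to 5.74), H2BC4 3.38 (2.70 to 4.26) and H4C8 3.14 (2.88 to 3.43). H3C12, named after its values were seen, had the largest ratio, 8.53 (2.96 to 33.6), on 26 counts with RVX-208 and 4 with TGF-β, and it shares exon bases with H2AC17 in GENCODE 29. Several genes lay just under the rule, such as H2AC13 at 1.99 (1.29 to 3.09), H2BC5 at 1.98 (1.82 to 2.15) and H2AC19 at 1.94 (1.75 to 2.16).

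By class, the scaled sums with RVX-208 were 2.72 times (2.57 to 2.88) those with TGF-β for H4, 2.39 times (2.26 to 2.53) for H2A, 1.83 times (1.57 to 2.13) for H3 and 1.79 times (1.73 to 1.85) for H2B. H2AC6 carried much of the H2A sum, and without it the factor was 1.86 (1.72 to 2.02). Both compound comparisons share the TGF-β library, so their ratios are not independent of each other.

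BDS4 and RVX-208 were given at the same dose for the same time, and their libraries are set side by side here. Whether the same dose acts equally on the target was not tested. Of the 50 genes that passed the filter, 33 were called higher with BDS4 than with RVX-208 and 1 lower. Among all genes past the filter 11.6% were called higher and 13.1% lower. The median log2 ratio was 1.46 over the 50 histone genes and −0.01 over all genes, and 46 of the 50 had more CPM with BDS4. Among genes with at least 1 CPM with TGF-β, 23 of 36 (63.9%) were called higher, against 8.93% of all genes. Among the genes of the plot by library, the largest ratio was that of H3C2, 10.5 (6.33 to 18.8). H1-4 followed with 6.92 (4.96 to 9.91), H3C15 with 5.43 (4.28 to 6.96) and H4C5 with 4.86 (3.71 to 6.45). At the other end H2AC6 had 0.917 (0.863 to 0.974) and H2BC4 0.893 (0.757 to 1.05), and the one gene called lower was H3C12, with 12 counts with BDS4 and 26 with RVX-208. The summed ratio for all 74 genes, which rests largely on the few most abundant ones, was 1.73 (1.71 to 1.76). It was 3.61 (3.25 to 4.03) for H3, 2.77 (2.67 to 2.87) for H4, 1.91 (1.86 to 1.97) for H2B and 1.82 (1.75 to 1.89) for H2A. Without H2AC6 the H2A factor was 3.03 (2.86 to 3.21), above that of H4 without H4C8, 2.35 (2.23 to 2.47). This is 1 pair of compounds with 1 library each, so the intervals hold counting error alone.

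**Figure D4:**
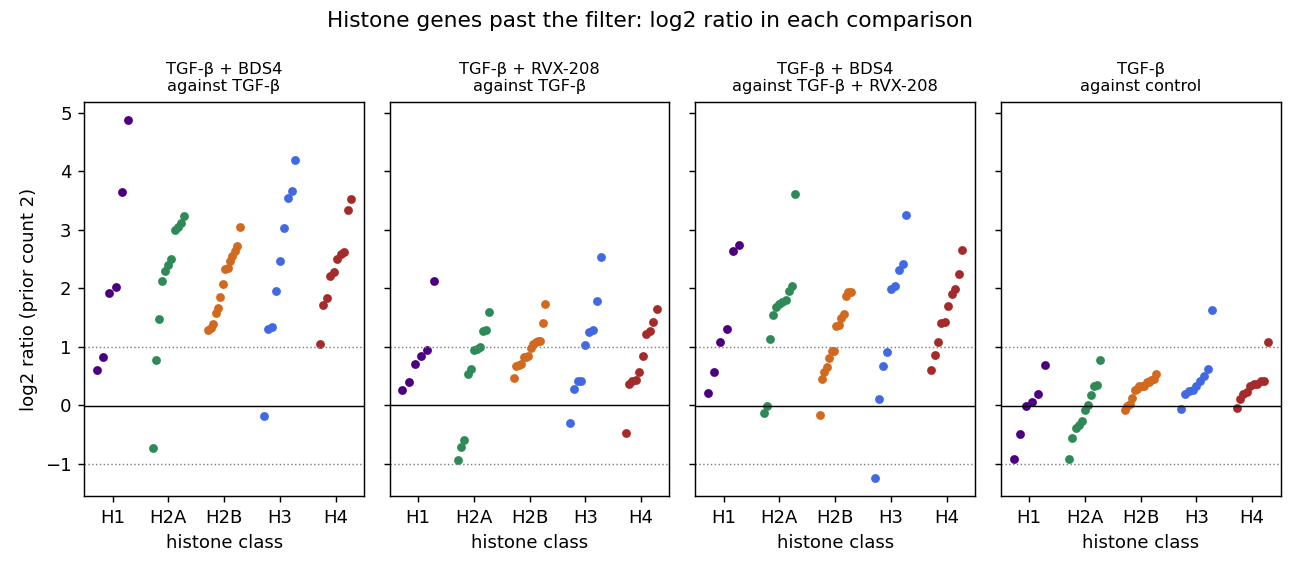
Log2 ratio (prior count 2) of each of the 50 histone genes past the filter, by class, in 4 panels, one for each comparison. Solid lines are the median of all genes and dotted lines mark a factor of 2. With BDS4 against TGF-β the points reach 4.88 and 48 of 50 lie above 0, and in TGF-β against control the points lie between −0.92 and 1.62.

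TGF-β against control sets the libraries with and without the cytokine side by side. DMSO is named for TGF-β alone and not for control, so vehicle and cytokine may differ together here. No histone gene past the filter was called in either direction, against 5.36% higher and 4.4% lower among all genes past it. The median log2 ratio was 0.26 over the 50 histone genes and −0.01 over all genes. Small differences remained: H2BC21 had 18.5 CPM with TGF-β and 12.8 in control, a ratio of 1.45 (1.24 to 1.68), and H2BC12 had 156 against 119 CPM, a ratio of 1.31 (1.25 to 1.38). H2AC6 went the other way, with 39.6 CPM with TGF-β and 58.2 in control, a ratio of 0.680 (0.624 to 0.741). Summed over the 74 genes the ratio was 1.08 (1.06 to 1.10), and by class it lay between 0.813 for H2A and 1.30 for H2B.

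By position, 34, 5 and 16 of the 74 genes lie in 3 blocks on chromosome 6p22, 11 lie on 1q21 and 2 on 1q42. With BDS4 against TGF-β, 19 of the 20 genes past the filter in the first 6p22 block were called higher, 4 of 4 in the second, 8 of 10 in the third, 9 of 10 on 1q21 and both on 1q42. Of the other protein-coding genes inside these blocks, 6 in number, only TRIM38 and HFE passed the filter. TRIM38 had 28.6 CPM with BDS4, 40.3 with RVX-208, 47.6 with TGF-β and 33.8 in control. HFE, which acts in iron homeostasis, had 8.63, 5.05, 9.96 and 9.46 CPM in that order. Neither was called in any of the 4 comparisons. Most of the histone genes past the filter around them were called with BDS4 against TGF-β, and none with TGF-β against control. Across all genes past the filter, 14.3% were called higher and 17.8% lower with BDS4 against TGF-β. Most genes were thus not called, and TRIM38 and HFE do not set the histone genes apart.

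Promoters of these genes share short motifs. RefSeq start sites were available for 67 of the 74 genes, and both strands of the 250 bases before each were searched for the letters of 3 elements. The octamer ATTTGCAT, the site of the POU factor OCT1, was found in 38.8% of the 67 promoters and in 1.66% of all 27305 promoters. It lay in 77.8% of H2B and 68.8% of H2A promoters, and in none of the H1 or H4 promoters. CCAAT, the letters of the CCAAT box, was found in 83.6% of histone promoters and 33.0% of all, and in 23.1% of those of H4. TATAAA, a form of the TATA box, was found in 64.2% and 11.1%. The promoters printed are those of the 3 genes with the largest BDS4 to TGF-β ratios among the genes of the plot by library, each with at least 10 CPM in a library or the most counts of its class. Capitals mark matches to CCAAT or TATAAA on either strand, the sequences are from RefSeq (GRCh38.p14) and they run in the gene's direction up to its start.
H1-4 promoter (chr6:26156079-26156328, plus strand): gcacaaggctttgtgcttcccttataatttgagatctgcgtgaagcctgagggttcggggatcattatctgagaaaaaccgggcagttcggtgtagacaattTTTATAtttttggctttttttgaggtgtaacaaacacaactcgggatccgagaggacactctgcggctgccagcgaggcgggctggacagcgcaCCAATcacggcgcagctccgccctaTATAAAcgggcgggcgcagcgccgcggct
H3C15 promoter (chr1:149852358-149852607, plus strand): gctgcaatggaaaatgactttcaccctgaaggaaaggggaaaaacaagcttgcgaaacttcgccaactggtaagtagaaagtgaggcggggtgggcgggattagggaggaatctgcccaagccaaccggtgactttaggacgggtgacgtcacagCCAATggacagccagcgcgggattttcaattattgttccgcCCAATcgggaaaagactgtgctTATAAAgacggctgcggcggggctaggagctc
H3C2 promoter (chr6:26032100-26032349, minus strand): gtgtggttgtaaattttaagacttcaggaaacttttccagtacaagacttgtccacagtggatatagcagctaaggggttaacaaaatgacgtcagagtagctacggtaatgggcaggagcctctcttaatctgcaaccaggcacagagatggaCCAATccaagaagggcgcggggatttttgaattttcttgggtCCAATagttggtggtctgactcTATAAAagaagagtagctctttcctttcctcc
H3C15 and H3C2 each hold CCAAT at 2 places within the printed stretch and TATAAA at 1, and H1-4 holds CCAAT at 1 place and TATAAA at 2, one of them on the other strand. A match is a description of letters and not evidence of a bound factor.

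Genes that serve the histones were read from companion lists. Histone transcription and 3′ end processing had 2 of 23 genes past the filter called higher with BDS4 against TGF-β, and 4 lower, neither share above the 14.3% and 17.8% of all genes. SLBP, which binds the stem-loop, had 297 CPM with BDS4, 127 with RVX-208, 105 with TGF-β and 114 in control. NPAT, the coactivator that switches on histone clusters in S phase, had 129, 60.3, 52.2 and 49.5 CPM in that order. Both followed the order of the histone genes, with ratios of 2.83 (2.70 to 2.97) and 2.46 (2.30 to 2.64) for BDS4 to TGF-β. CPSF2, a subunit of the cleavage complex, had 49.0 CPM with BDS4, 110 with RVX-208, 116 with TGF-β and 113 in control. The others called lower were MBLAC1, LSM11 and SYMPK.

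DNA replication genes, 28 in number, had 3 called higher and 2 lower with BDS4, against 14.3% higher and 17.8% lower among all genes past the filter, so neither count stands above that of all genes. RRM2, a subunit of ribonucleotide reductase, had 999.6 CPM with BDS4, 401 with RVX-208, 225 with TGF-β and 232 in control, and CCNE2 and CDC6 were the others called higher. MCM5, a subunit of the replicative helicase, had 51.7 CPM with BDS4, 151 with RVX-208, 245 with TGF-β and 256 in control, and MCM2 was called lower too. Of 18 genes of G2 and mitosis none was called higher and 7 lower, among them PLK1, a mitotic kinase, with 20.8 CPM with BDS4, 70.1 with RVX-208, 131 with TGF-β and 108 in control. The other 6 were AURKA, CDC20, CCNB1, UBE2C, TPX2 and BUB1B.

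Variant histones outside the symbol rule, which are mostly made throughout the cell cycle, had 4 of 11 called higher with BDS4 and 2 lower. Across all genes past the filter 14.3% were called higher and 17.8% lower with BDS4 against TGF-β. H3-3A, a replacement H3, had 46.6 CPM with BDS4, 40.2 with RVX-208, 16.4 with TGF-β and 15.5 in control. H2AJ, H3-5 and H3-7 were called higher as well. MACROH2A2, a macro-domain H2A variant, had 3.38 CPM with BDS4, 12.7 with RVX-208, 25.9 with TGF-β and 25.6 in control, and CENPA, the centromeric H3, was the other called lower. Histone chaperones had 2 of 23 higher (UBN1 and SPTY2D1) and 2 lower (SSRP1 and DAXX), neither share above that of all genes. Of 9 genes commonly reported to change under BET inhibition 3 were called higher, namely SERPINI1, SAT1 and HEXIM1, and HEXIM1 had 622, 252, 166 and 152 CPM with BDS4, RVX-208, TGF-β and control.

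With RVX-208 against TGF-β these lists had 3 calls in all: H3-3A and SERPINI1 higher and MACROH2A2 lower. Among all genes past the filter 2.91% were called higher and 5.32% lower. With TGF-β against control there was 1 call, MYC, a growth-promoting transcription factor, at 16.8 CPM with TGF-β and 36.6 in control. The shares of all genes were 5.36% higher and 4.4% lower. Median log2 ratios for BDS4 to TGF-β were 0.13 for the processing list, 0.09 for replication, −0.74 for G2 and mitosis, 0.25 for chaperones and 0.48 for variant histones, against 2.31 for the 50 histone genes.

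**Figure D5:**
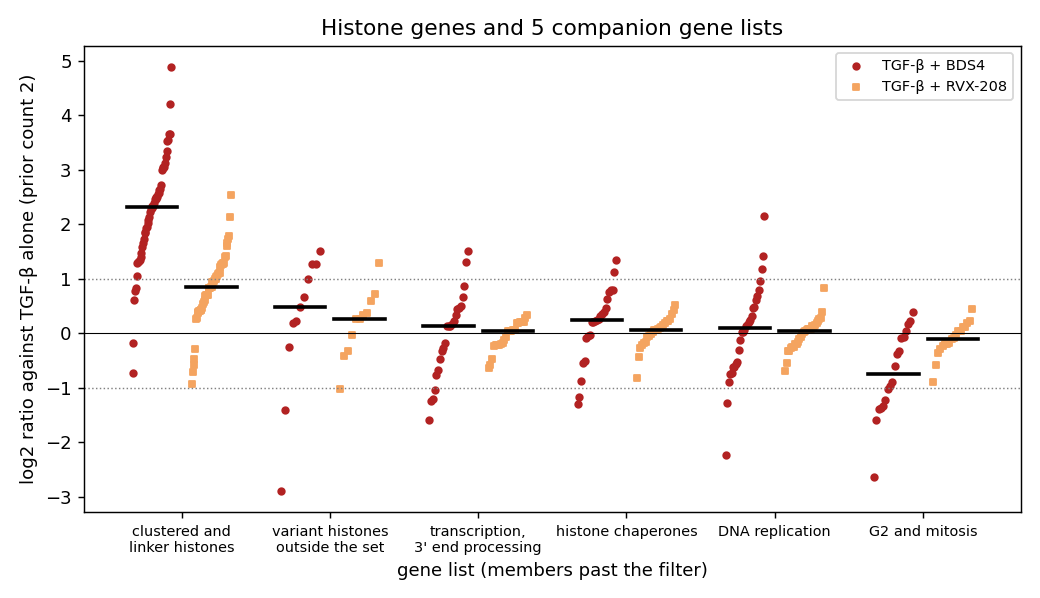
Log2 ratio against TGF-β alone (prior count 2) for the 50 histone genes and 5 companion lists, with 1 point per gene past the filter, circles for BDS4 and squares for RVX-208, and bars at the medians. The histone bars stand at 2.31 for BDS4 and 0.85 for RVX-208, and those of the other lists lie between −0.74 and 0.48.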

How the data were processed

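RNA was sequenced from 4 LX-2 libraries with a stranded, paired-end mRNA kit, per the series' design text. The authors deposited raw whole-number counts per gene and FPKM values. Per the series' design text the deposited FPKM values were made with StringTie 1.3.0. CASAVA 1.8, TopHat2 2.0.6 and the build GRCh38 are named in the submitters' processing notes. The sources used here do not give the counting program, annotation release or strand setting. In 9069 genes with more than 200 counts in every library, counts and FPKM gave one length per gene to within 0.00042%.

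TMM scaling (edgeR 4.0.16, R 4.3.3) used factors of 0.943 for BDS4, 0.989 for RVX-208, 1.01 for TGF-β and 1.06 for control. Genes with at least 1 CPM of the library total in at least 1 library were kept. Ratios carry a 95% conditional exact (Clopper-Pearson) interval, and log2 ratios a prior count of 2. A floor of 3 counts was 0.147, 0.178, 0.136 and 0.126 CPM in the same order. Intervals and floors cover counting error only, and PCR copies are not independent molecules. The rules were tested on simulated counts with counting error only, which cannot show how calls would hold between cultures. Other steps used Python 3.11.15, numpy 2.4.6, scipy 1.17.1, pandas 2.3.3 and matplotlib 3.10.9.

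The members and gene lists were chosen with earlier results of these data known. Values in all libraries are given for genes called in at least 1 comparison with at least 10 CPM in a library, and for the gene with the most counts of each core class. In companion lists the called genes with the largest ratios are named, and others were named after their values were seen. Alternatives covered the scaling (with DESeq2 1.42.0 size factors), the filter, the factor, the prior count, the class sums, shared exon bases and, added after the data were seen, the filter on TGF-β alone and the scaling without BDS4. Protein sequences were not used here. Results for 1 gene are not reported here.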

Additional observations from a re-analysis of the deposited data

Results flagged for a closer look

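Among rows left out of the histone gene set, 2 met the rule for a call of higher in the BDS4 library against control. The antisense RNA H2BC6-AS1 had 15 counts with BDS4, 1 with RVX-208, 3 with TGF-β and 2 in control. It overlaps H2BC6 on the other strand, which had 493 counts with BDS4, and the sources used here do not state whether counting used the strand. The pseudogene H2BC16P had 16 counts with BDS4, 2 with RVX-208, 0 with TGF-β and 0 in control. Near-identical histone copies can share reads with it. Whether either signal is that of the row itself was not tested.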

How the results depend on the processing

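Of 150 alternatives computed over 32 results, 140 were labelled as unchanged. For counts of called genes this meant a count within a factor of 1.5 of the main one. For medians and class sums it meant the same direction and the same side of a factor of 2. For TGF-β against control, 1 histone gene was called lower with no filter on low counts, against 0 with it. In the same comparison the H1 sum had a log2 ratio of −0.0098 under scaling by total counts, against 0.06. For RVX-208 against TGF-β, 28 genes were higher at a ratio of at least 1.5, against 18. For BDS4 against RVX-208, 0 genes were lower, against 1, with a minimum of 5 CPM, with genes sharing exon bases left out, or among genes with at least 1 CPM with TGF-β. Leaving out the gene with the most counts of a class moved H2A and H2B sums across a factor of 2, with the full sum in brackets. In log2, for RVX-208 against TGF-β the H2A sum became 0.90 (1.26) and the H2B sum 1.04 (0.84). For BDS4 against RVX-208 the H2A sum became 1.60 (0.86) and the H2B sum 1.21 (0.94). This alternative is not reported for the H1 sums. Where a gene was left out, the construction of the sum shows the cause, and for the other changes the cause was not tested. Under total counts the median log2 ratio of all genes for BDS4 against TGF-β was −0.11, against −0.02 under TMM. The scaling factors themselves differed by 0.0986 in log2 between TMM and total counts in this comparison. No paired analysis was possible because each condition had 1 library. Depth limits genes with few counts, such as H3C12 and the 24 genes under the filter.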
